A study of Mus musculus with 454 samples.

Results

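Regional identity transcription factors are DNA-binding proteins whose presence tells from which part of the developing brain a neuron came. They were taken here as 9 named genes, Lhx6, Lhx8, Nkx2-1, Lhx9, Otp, Sim1, Meis2, Foxp2 and Tbr1, of the 43346 genes in the count table, and read as a measure of what each dissection held. The table names genes by Ensembl identifier, and each of the 9 symbols matched 1 row.

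During development the brain is divided into domains, each marked by its own combination of transcription factors, and many neurons keep those factors for life. Nkx2-1 marks the medial ganglionic eminence and the preoptic area at the base of the forebrain, where it acts upstream of the LIM-homeodomain factors Lhx6, kept by somatostatin and parvalbumin interneurons, and Lhx8, kept by forebrain cholinergic neurons. Otp and Sim1 are needed for the neuroendocrine neurons of the hypothalamus and are also found in the amygdala, Meis2 and Foxp2 are strong in neurons of the striatum, and Tbr1 marks glutamatergic neurons of the cortex and other pallial areas, so the amygdala, which draws neurons from several domains, can express all of them.

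The series measured RNA in mouse brain libraries from 4 regions that the labels call AMY (115 libraries), VTA (115), Nac (112) and PFC (112), the usual short names of amygdala, ventral tegmental area, nucleus accumbens and prefrontal cortex. The title of the study names the medial amygdala. Females and males were socially isolated (SI in the labels) or housed in groups (G), and received cocaine at 7.5 mg/kg or saline on a chronic or an acute schedule, which gave 16 groups in each region and 64 in all, with 5 to 8 libraries each. The sources used here give neither strain nor age of the mice. Nor do the labels say that the libraries of a group came from separate animals, so the spread behind each p-value is that between libraries and can be partly technical.

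Library totals ran from 11.21 to 52.34 M counts with a median of 21.71 M. Levels are given as CPM, counts per mega-count of the library, and marker lists as summed CPM. The dopamine neuron list ran from 1674 to 10330 in VTA and reached 264 at most elsewhere, and the striatal neuron list ran from 1614 to 6975 in Nac and reached 1510 at most elsewhere. The cortical glutamatergic list ran from 3075 to 5640 in PFC and overlapped with AMY (954 to 3920), and the medial amygdala list ran from 107 to 406 in AMY and overlapped with Nac (57.9 to 157). By principal components, by a marker list of foreign tissue or by transcripts of the opposite sex, 5 libraries stood apart in AMY, 6 in VTA, 5 in Nac and 3 in PFC, and the region, treatment and schedule differences and the correlations were recomputed without them. The sample titles carry numbers in 4 series (500, 1000, 1100 and 1200), whose meaning the labels do not give. Acute libraries were in series 1000 and 1100, chronic saline libraries in 500 and 1200, and chronic cocaine libraries in 1000 and 1200, so relations between libraries were also computed within each series.

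Lhx6 (GRCm38, chr2:36081953-36105408, minus strand) was at a high level in the 3 forebrain regions and nearly absent from VTA. It ran from 26.2 through a median of 42.3 to 87.7 CPM in AMY, from 0.0847 through 0.490 to 6.62 CPM in VTA, from 15.8 through 33.4 to 88.4 CPM in Nac and from 20.1 through 24.95 to 29.91 CPM in PFC. Every AMY, Nac and PFC library lay above every VTA library, AMY and Nac overlapped widely, and 111 of 115 AMY libraries lay above the highest PFC library. The log2 difference was 6.17 between AMY and VTA (SE 0.08, adjusted p = 1.35e-242), 0.22 between AMY and Nac (SE 0.05, adjusted p = 3.57e-05) and 0.63 between Nac and PFC (SE 0.05, adjusted p = 5.89e-27). These and all other adjusted p-values of region, treatment and series differences come from the quasi-likelihood test of edgeR, adjusted over all genes tested by the Benjamini-Hochberg method.

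Lhx8 (chr3:154306294-154330659, minus strand) and Nkx2-1 (chr12:56531958-56536908, minus strand), like Lhx6 factors of the ventral forebrain, were highest in Nac. Lhx8 ran from 0.0645 through 2.44 to 34.8 CPM in AMY, from 2.32 through 10.8 to 37.3 CPM in Nac and from 0 through 0.0726 to 1.16 CPM in PFC, and 74 of 115 VTA libraries had no count of it. Its level in AMY therefore spanned the whole distance from the PFC range to the top of the Nac range. The difference between AMY and Nac was -1.57 (SE 0.12, adjusted p = 2.53e-30). Nkx2-1 averaged 2.07 ± 1.15 CPM in AMY (SD, n = 115), 0.496 ± 0.942 CPM in VTA (n = 115), 6.76 ± 2.45 CPM in Nac (n = 112) and 0.193 ± 0.216 CPM in PFC (n = 112). It overlaps the gene model Gm26973 on the opposite strand, and since no source used here gives the strand setting of the counting, reads of the 2 genes cannot be told apart.

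The factors shared between amygdala and hypothalamus, Lhx9 (chr1:138825186-138848577, minus strand), Otp (chr13:94875602-94885130, plus strand) and Sim1 (chr10:50894754-50989152, plus strand), were highest in AMY, second in VTA and close to 0 in Nac and PFC. Lhx9, the LIM-homeodomain relative of Lhx2, averaged 14.98 ± 5.22 CPM in AMY, 2.746 ± 1.495 CPM in VTA, 0.196 ± 0.194 CPM in Nac and 0.290 ± 0.185 CPM in PFC, and 101 of 115 AMY libraries lay above the highest VTA library. Otp, a homeodomain factor, ran from 0.920 through 14.4 to 32.7 CPM in AMY and from 0 through 2.13 to 47.6 CPM in VTA, so 3 VTA libraries lay above every AMY library although the difference was 1.65 in favour of AMY (SE 0.14, adjusted p = 6.40e-27). Sim1, a factor of the basic helix-loop-helix PAS family that pairs with Arnt2, ran from 0.525 through 8.31 to 73.5 CPM in AMY and from 0.147 through 1.99 to 11.3 CPM in VTA, a difference of 2.33 (SE 0.13, adjusted p = 2.49e-50). In Nac and PFC, 76 of 112 and 89 of 112 libraries had no count of Sim1 and the highest had 0.390 and 0.110 CPM, so the 2 regions cannot be ordered for it. Otp likewise did not differ between Nac and PFC beyond its spread (0.06, SE 0.71, adjusted p = 0.943).

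Meis2 (chr2:115863064-116065839, minus strand), a TALE homeodomain factor of striatal projection neurons, was the most abundant of the 9 genes in Nac, where its range of 296 to 647 CPM lay above every library of the other regions. It ran from 40.3 through 185 to 280 CPM in AMY, from 8.53 through 22.0 to 71.3 CPM in VTA and from 130 through 170 to 212 CPM in PFC. AMY and PFC had nearly the same mean, 175 ± 50.1 CPM (SD, n = 115) and 171 ± 14.8 CPM (n = 112), and did not differ in the test (0.02, SE 0.05, adjusted p = 0.788), but the AMY libraries lay both above and below the whole PFC range, 26 and 19 of them. Foxp2 (chr6:14901349-15441977, plus strand), a forkhead factor of the striatum, of cortical layer 6 and of the clustered intercalated cells of the amygdala, averaged 40.8 ± 11.5 CPM in AMY, 45.3 ± 10.9 CPM in VTA, 106 ± 24.1 CPM in Nac and 24.8 ± 5.90 CPM in PFC. AMY and VTA overlapped widely and differed by -0.16 (SE 0.05, adjusted p = 0.00215).

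Tbr1 (chr2:61802930-61814114, plus strand), the T-box factor of pallial glutamatergic neurons, separated PFC from all but 1 of the other libraries. It ran from 14.1 through 32.3 to 87.0 CPM in AMY, from 0.229 through 0.713 to 6.89 CPM in VTA, from 0.794 through 3.85 to 127 CPM in Nac and from 109 through 174 to 229 CPM in PFC. Each AMY library lay below each PFC library, 1 Nac library reached into the PFC range, and AMY and Nac overlapped even though 91 of 112 Nac libraries lay below the lowest AMY library. The difference was -2.38 between AMY and PFC (SE 0.12, adjusted p = 3.04e-63) and 1.86 between AMY and Nac (SE 0.12, adjusted p = 3.76e-41).

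**Figure D1:**
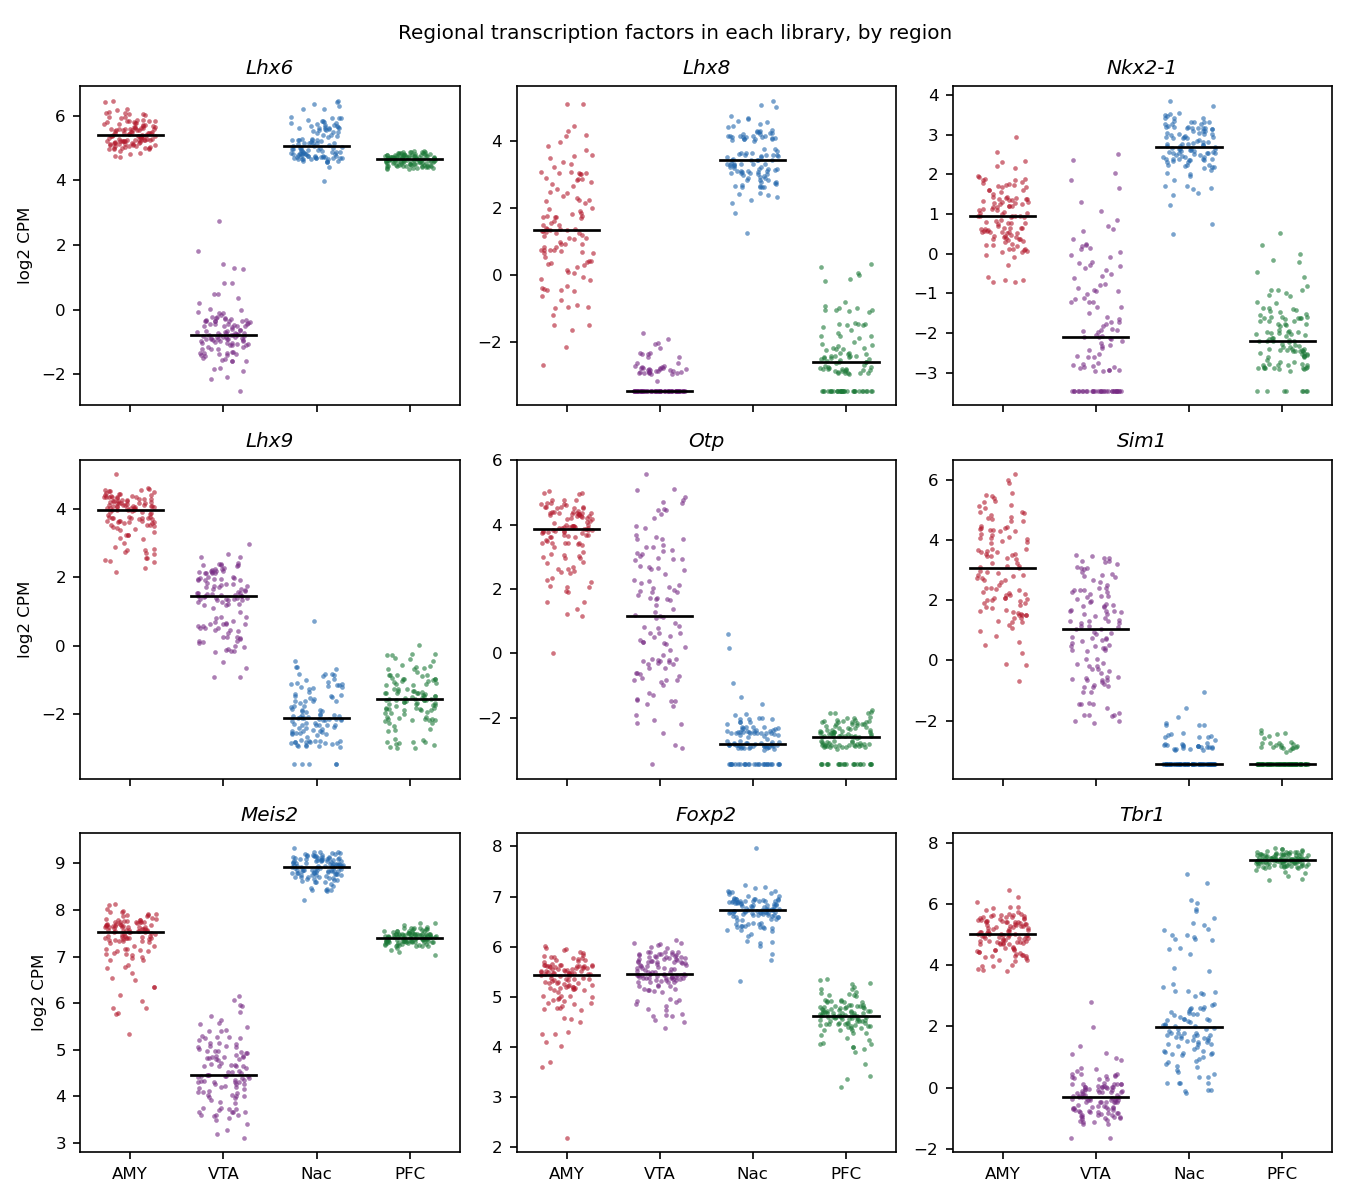
Level of each of the 9 genes in each library, as log2 CPM with a prior count of 2, by region. Each point is 1 library and each black line is the median of 115 (AMY, VTA) or 112 (Nac, PFC) libraries. Meis2 in Nac lies above all other regions, Tbr1 is tight in PFC and wide in Nac, and Lhx8 and Sim1 are wide in AMY.

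All 9 genes passed the threshold of 0.05 in AMY against VTA, AMY against Nac, VTA against Nac and VTA against PFC, 8 of 9 in AMY against PFC and 7 of 9 in Nac against PFC. Of all 18627 genes tested, 87.3%, 84.4%, 90.4%, 89.3%, 81.5% and 86% passed in these comparisons, in the same order, so passing was the rule for genes of any kind, and what set the regions apart was the size of the differences given above. In a bulk sample, fewer cells of a type and less RNA per cell cannot be told apart.

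Per exon length, which lets genes be compared with each other, Meis2 led in AMY with 14.6 RPKM (reads per kilobase of exon per mega-count), followed by Lhx6 with 9.35, Tbr1 with 6.25 and Otp with 5.11 RPKM, and Nkx2-1 came last with 0.729 RPKM. In VTA, Foxp2 (2.77 RPKM), Meis2 (2.14 RPKM) and Otp (2.04 RPKM) led, with overlapping ranges between libraries. In Nac, Meis2 (40.2 RPKM) stood far above Lhx6 (8.01 RPKM), Foxp2 (6.49 RPKM) and Lhx8 (5.02 RPKM). In PFC, Tbr1 (31.8 RPKM) was followed by Meis2 (14.2 RPKM) and Lhx6 (5.19 RPKM).

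Other transcription factors of the same domains were taken from lists. Of the 17 midbrain factors tested, 17 were higher in VTA than in Nac and 17 higher than in PFC, and 17 were lower in AMY than in VTA. En1, the engrailed homeodomain factor of the midbrain, averaged 61.9 CPM in VTA and 0.0475 CPM in AMY. Of the 18 pallial factors, 16 were lower in AMY than in PFC and 16 higher in AMY than in VTA. Neurod6, a factor of cortical projection neurons, averaged 10.5 CPM in AMY and 126 CPM in PFC. Of the 13 striatal factors, 12 were higher in Nac than in PFC and 11 lower in AMY than in Nac, among them Foxp1, the close relative of Foxp2, with 28.6 CPM in AMY and 236 CPM in Nac. Of the 13 factors of the medial ganglionic eminence and preoptic area, 10 were higher in AMY than in VTA. Of all 18627 genes tested, 8223 were higher in VTA than in Nac, 8421 higher in VTA than in PFC and 9084 higher in Nac than in PFC, and 8310 were higher and 7943 lower in AMY than in VTA, 8667 lower in AMY than in Nac and 7523 lower in AMY than in PFC. Of the 15 hypothalamic factors tested, most were lower in AMY than in VTA, 12 against 3 that were higher. Fezf1, a zinc finger factor of the ventromedial hypothalamus and medial amygdala, was among the 3 exceptions and averaged 7.76 CPM in AMY and 0.0131 CPM in VTA. The median log2 difference of the hypothalamic list between AMY and VTA was -1.23, against 0.01 over all genes tested.

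Within a region, the 9 genes differed greatly in how much they varied between libraries of the same group. The biological coefficient of variation, which edgeR estimates beyond counting error, had a median over all genes of 12.4% in AMY, 11.6% in VTA, 15.8% in Nac and 11.99% in PFC. In AMY it was 101% for Lhx8, 86.9% for Sim1, 58.4% for Otp, 48.3% for Nkx2-1, 38.4% for Lhx9 and 23.9 to 33.2% for Lhx6, Meis2, Foxp2 and Tbr1. Among the 1000 genes nearest to it in level, Sim1 was at the 100th percentile and Lhx8 at percentile 99.6, and all 9 were at or above percentile 94. In PFC, by contrast, Lhx6 (7.68%), Meis2 (8.41%) and Tbr1 (11.9%) lay below the median of all genes, whereas Foxp2 (23.9%), Lhx9 (45.4%), Nkx2-1 (67.5%) and Lhx8 (107.7%) lay above it. In VTA the variation was 147% for Nkx2-1, 124% for Otp and 76.3% for Sim1, and in Nac it was 108% for Tbr1, again at the 100th percentile for its level, while Meis2 there had 15.1%.

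The same spread can be read as distance from the median. In AMY, 53 of 115 libraries lay within 2-fold of the median for Lhx8 and 45 of 115 for Sim1, where the highest library was 140-fold above the lowest. In VTA the numbers were 33 of 115 for Otp and 45 of 115 for Sim1. In Nac, 62 of 112 libraries lay within 2-fold of the median of Tbr1 and the highest was 160-fold above the lowest. In PFC, all 112 libraries lay within 2-fold of the median for Lhx6, Meis2 and Tbr1.

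The extreme libraries of AMY showed that the genes moved in combinations. An isolated female with acute cocaine (replicate 7) had the highest Lhx6 (87.7 CPM), Lhx8 (34.8 CPM) and Nkx2-1 (7.58 CPM) of the region together with a low Lhx9 (5.31 CPM). An isolated female with acute saline (replicate 2) had the lowest Lhx8 (0.0645 CPM), Meis2 (40.3 CPM) and Foxp2 (4.45 CPM) and the highest Lhx9 (32.1 CPM). An isolated male with chronic saline (replicate 5) had the highest Meis2 (280 CPM) and Tbr1 (87.0 CPM) and a Sim1 of 64.8 CPM. None of the 3 was among the libraries that stood apart.

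To describe these combinations, Pearson's r was computed over the libraries of a region on log2 CPM, as deviations from the group means, for the genes that averaged at least 0.5 CPM there. Of 78 pairs of genes, 5 involved Tbr1 in Nac, whose libraries were split at a gap in its level and are treated apart below. Of the other 73, 41 passed a permutation test with Benjamini-Hochberg adjustment over all 78, 23 of 36 in AMY, 9 of 21 in VTA, 8 of 10 in Nac and 1 of 6 in PFC. For every r of 0.4 or more in size given below between 2 of the genes, the adjusted permutation p was 5.2e-05 or less, where 2.8e-05 is the smallest the 100000 permutations allow after adjustment. Values after it are Spearman's rho, r without the 2 libraries farthest from the median, and the range of r within the 4 number series.

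In AMY the genes formed 2 opposed groups and a further set. Nkx2-1 was correlated with Lhx6 (r = 0.69, rho = 0.63, 0.65 without the 2 farthest, 0.48 to 0.87 within series) and with Lhx8 (r = 0.67, rho = 0.61, 0.66, 0.50 to 0.89). Lhx9 ran against Nkx2-1 (r = -0.70, rho = -0.70, -0.70, -0.76 to -0.58) and against Lhx8 (r = -0.69, rho = -0.67, -0.67, -0.87 to -0.60), and with Otp (r = 0.59, rho = 0.55, 0.53, 0.37 to 0.77). Libraries rich in Lhx9 were thus poor in Nkx2-1 and Lhx8. Meis2 and Foxp2 gave the closest pair of the region (r = 0.86, rho = 0.84, 0.84, 0.40 to 0.88), and Lhx8 was correlated with Meis2 as well (r = 0.68, rho = 0.70, 0.66, 0.31 to 0.79). Sim1, needed like Otp for neuroendocrine neurons of the hypothalamus, had no correlation with Otp that passed here (r = -0.01, rho = -0.08, adjusted permutation p = 0.92, -0.64 to 0.47 within series). It followed Tbr1 (r = 0.54, rho = 0.53, 0.54, 0.21 to 0.76).

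**Figure D2:**
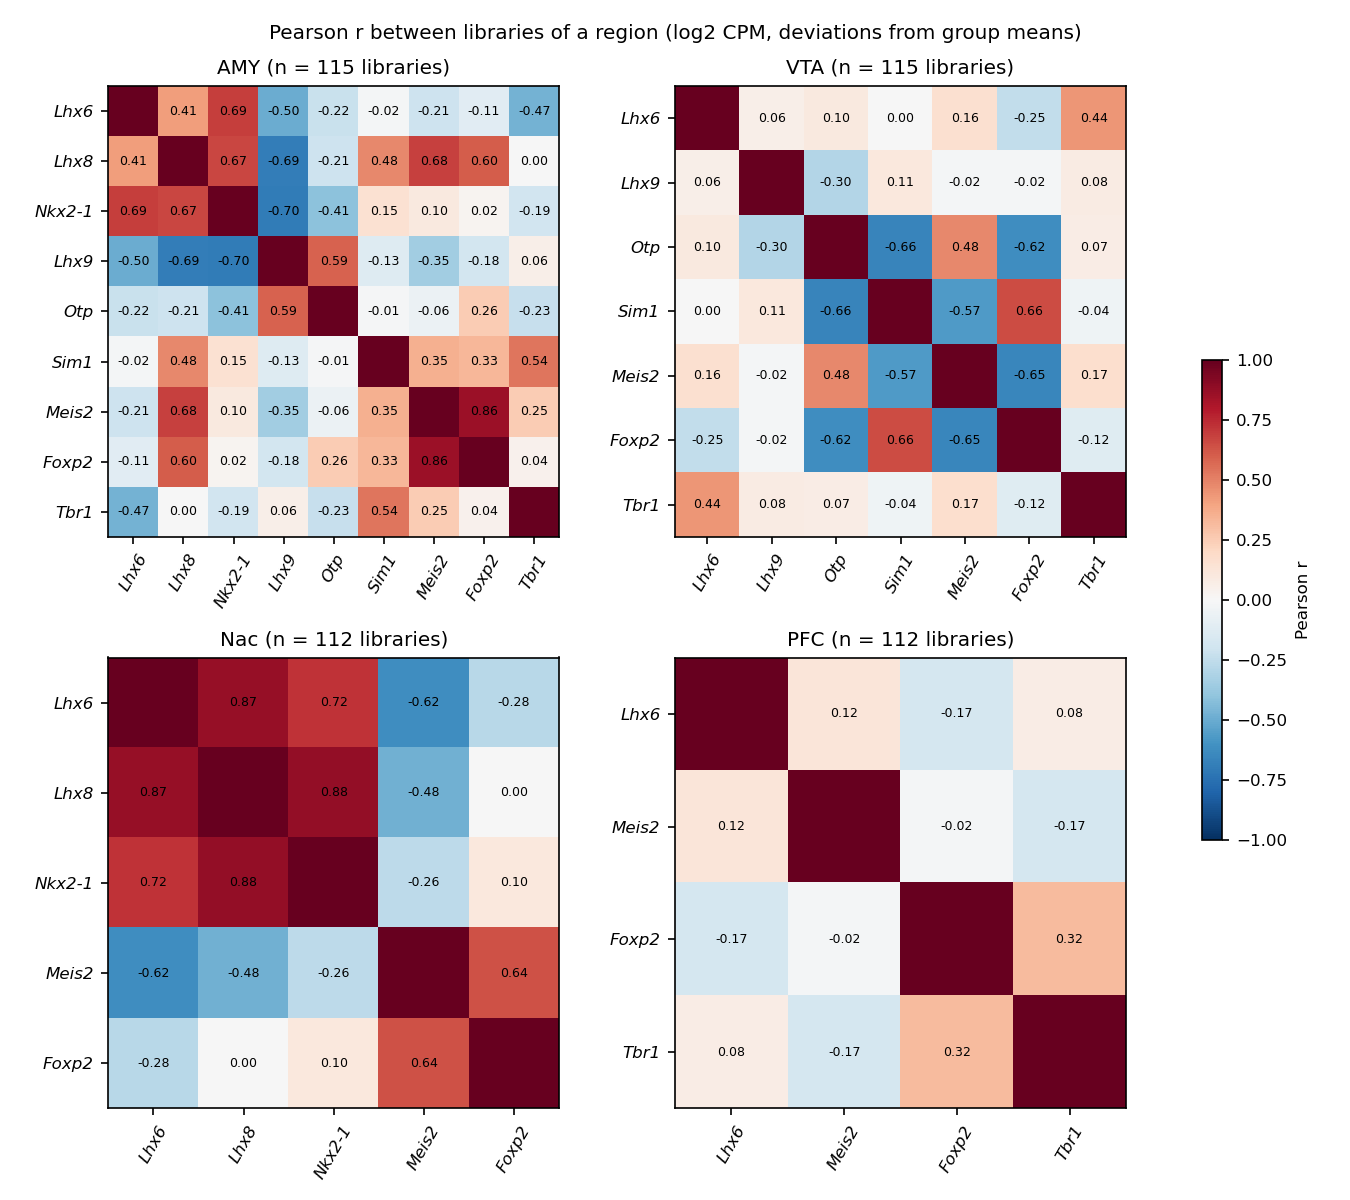
Pearson's r between each pair of genes over the libraries of a region, on log2 CPM as deviations from group means (115 libraries in AMY and VTA, 112 in Nac and PFC). Red is positive and blue negative, and genes under 0.5 CPM on average are left out, as is Tbr1 in Nac. Meis2 and Foxp2 have r = 0.86 in AMY and -0.65 in VTA, and Lhx6, Lhx8 and Nkx2-1 form a red block in Nac.

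Marker lists of cell types moved with these genes. Of 416 relations of a gene with the mean log2 CPM of a list, 210 of the 400 that do not involve Tbr1 in Nac passed the permutation test adjusted over all 416, 84 of 144 in AMY, 48 of 112 in VTA, 54 of 80 in Nac and 24 of 64 in PFC. Each r of 0.5 or more in size given below between a gene and a list, Tbr1 in Nac left out, had an adjusted permutation p of 4.3e-05, the smallest possible. In AMY, Lhx8 followed the cholinergic neuron list (Chat, Slc18a3 and Slc5a7) with r = 0.96 (rho = 0.96, 0.96 without the 2 farthest, 0.94 to 0.97 within series). The summed level of that list ran from 1.19 through 5.49 to 155 CPM in AMY. Lhx8 was also correlated with the central amygdala list (r = 0.80, rho = 0.81, 0.78, 0.31 to 0.86), the oligodendrocyte list (r = 0.77, rho = 0.73, 0.74, 0.69 to 0.91) and the striatal neuron list (r = 0.76, rho = 0.78, 0.75, 0.59 to 0.81). The central amygdala list is not confined to AMY, with median sums of 162 CPM there, 251 CPM in Nac and 627 CPM in VTA. Gene by gene, 4 of its 6 genes were higher and 1 lower in AMY than in VTA, and 2 were higher and 3 lower than in Nac. Meis2 followed the striatal list (r = 0.77, rho = 0.84, 0.76, 0.67 to 0.88) and ran against the medial amygdala list (r = -0.72, rho = -0.68, -0.72, -0.78 to -0.12). Lhx9 ran against the cholinergic list (r = -0.70, rho = -0.67, -0.69, -0.79 to -0.62) and the oligodendrocyte list (r = -0.67, rho = -0.69, -0.67, -0.87 to -0.57), and Otp against the list of interneurons from the medial ganglionic eminence (r = -0.59, rho = -0.59, -0.58, -0.89 to -0.17). The part of any of these cell types in the levels of the genes was not tested.

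The genes of the whole table whose deviations were most like those of each of the 9 were ranked by r. In AMY these were, for Lhx8, Slc10a4, a transporter of cholinergic vesicles (r = 0.97), Gbx1 (0.97) and Chat, the enzyme that makes acetylcholine (0.96). For Otp they were Fezf1 (0.89), Gpx3 (0.87) and Agt (0.87), for Sim1 the synapse organiser Cbln2 (0.94), Tmem65 (0.87) and Dach2 (0.87), and for Lhx9 Chst8 (0.82), Adamts15 (0.81) and Casr (0.80). Meis2 and Foxp2 shared Pbx3, a TALE homeodomain partner of Meis proteins, as the most similar gene (0.91 and 0.93), followed by Pax6 and Slc35f1 (both 0.90) for Meis2 and by Sp8 and Vat1l (both 0.88) for Foxp2. For Tbr1 they were Fam19a2 (0.88), Brinp1 (0.87) and Nptx2 (0.83), for Lhx6 Psd4 (0.76) and B3galt5 (0.72), and for Nkx2-1 Asic4 (0.78), Tprn (0.775) and Ano4 (0.77). Each value is over 115 libraries and ranks 13424 genes, and it is given as a description.

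In Nac, Lhx6, Lhx8 and Nkx2-1 moved as a block. Lhx8 was correlated with Nkx2-1 (r = 0.88, rho = 0.86, 0.87 without the 2 farthest, 0.61 to 0.93 within series) and with Lhx6 (r = 0.87, rho = 0.88, 0.86, 0.56 to 0.96), and Lhx6 with Nkx2-1 (r = 0.72, rho = 0.75, 0.70, 0.43 to 0.82). Lhx6 ran against Meis2 (r = -0.62, rho = -0.54, -0.58, -0.76 to 0.21), a relation that turned positive in the 10 libraries of series 500, while Meis2 and Foxp2 were correlated as in AMY (r = 0.64, rho = 0.66, 0.60, 0.70 to 0.81). A group-housed male with chronic saline (replicate 4) had the highest Lhx8 (37.3 CPM) and Nkx2-1 (14.4 CPM) and the lowest Meis2 (296 CPM) of the region. Meis2 followed the striatal neuron list (r = 0.88, rho = 0.86, 0.85, 0.81 to 0.99), and Nkx2-1 and Lhx8 followed the central amygdala list, whose genes Dlk1, Nts and Crh are not confined to that nucleus (r = 0.82, rho = 0.83, 0.81, 0.68 to 0.90 for Nkx2-1 and r = 0.81, rho = 0.81, 0.79, 0.40 to 0.88 for Lhx8). Most like Meis2 were Prkch and the potassium channel genes Kcna4 (both r = 0.93) and Kcnab1 (0.92), and most like Foxp2 were Pdyn, the precursor of dynorphin, Tle4 (both 0.81) and Dclk3 (0.80). Most like Lhx8 were AI606473 (0.94), Agt (0.93) and Gbx1 (0.93), and most like Nkx2-1 were Npy2r (0.90), AW551984 (0.88) and Cbln4 (0.88), each over 112 libraries and 13327 genes. The striatal list summed to between 1614 and 6975 CPM and the central amygdala list to between 67.8 and 373 CPM in Nac. The part of these cells in the block was not tested.

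Because Lhx6, Lhx8 and Nkx2-1 moved together, the windows from 250 bases before to 50 after their starts are shown, with that of Tbr1 for comparison, in GRCm38.p6 as given by RefSeq and 5′ to 3′ on the strand of the gene. They are chr2:36104011-36104310 (minus, 1 of 3 windows of Lhx6), chr3:154330511-154330810 (minus), chr12:56536859-56537158 (minus) and chr2:61804203-61804502 (plus). Capitals mark matches to 6 motifs searched on both strands.
Lhx6: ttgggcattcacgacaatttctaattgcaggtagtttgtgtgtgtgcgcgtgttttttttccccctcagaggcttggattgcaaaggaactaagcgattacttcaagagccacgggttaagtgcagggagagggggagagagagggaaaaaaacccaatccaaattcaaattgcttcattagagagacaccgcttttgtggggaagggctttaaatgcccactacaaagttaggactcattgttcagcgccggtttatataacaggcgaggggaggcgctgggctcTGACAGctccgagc
Lhx8: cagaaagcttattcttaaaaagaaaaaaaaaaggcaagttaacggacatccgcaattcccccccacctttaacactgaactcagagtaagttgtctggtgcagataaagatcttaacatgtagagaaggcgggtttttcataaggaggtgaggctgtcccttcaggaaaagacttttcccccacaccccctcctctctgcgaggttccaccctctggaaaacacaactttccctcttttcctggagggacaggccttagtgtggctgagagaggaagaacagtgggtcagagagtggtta
Nkx2-1: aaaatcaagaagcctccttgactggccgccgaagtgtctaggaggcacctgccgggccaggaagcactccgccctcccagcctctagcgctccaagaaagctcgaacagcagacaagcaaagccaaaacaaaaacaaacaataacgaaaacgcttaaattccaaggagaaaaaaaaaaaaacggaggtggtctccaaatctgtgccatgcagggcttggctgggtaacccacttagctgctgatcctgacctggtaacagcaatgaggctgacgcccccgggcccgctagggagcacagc
Tbr1: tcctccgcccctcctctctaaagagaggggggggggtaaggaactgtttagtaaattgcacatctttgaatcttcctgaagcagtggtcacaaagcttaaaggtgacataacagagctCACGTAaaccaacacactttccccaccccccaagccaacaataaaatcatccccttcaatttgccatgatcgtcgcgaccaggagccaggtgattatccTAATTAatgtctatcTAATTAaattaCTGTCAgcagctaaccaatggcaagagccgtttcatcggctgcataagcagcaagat
The motifs were TAATTA (homeodomain proteins), CAAGTG (the NK2 family of Nkx2-1), TGACAG (Meis), TACGTG (Sim1 with Arnt2), GTAAACA (forkhead) and AGGTGTGA (T-box), which occur in 5.3%, 13.6%, 19.2%, 3.23%, 3.65% and 1.27% of 32817 such windows. None of these letter strings is in the windows of Lhx8 and Nkx2-1. Of the 3 windows of Lhx6 only the one shown has a match, TGACAG. It lies inside the gene span given above, whereas the window chr2:36105359-36105658 covers the 5′ end of that span. The Tbr1 window has TAATTA, which is its own reverse complement, at 2 positions before the start and, as reverse complement, TGACAG at position -7 and TACGTG at -132 from the start. Of the 9 genes, 8 had an entry, with 10 windows, and in the other windows a single match, TGACAG in that of Lhx9, was found. A match is a string of letters and no evidence of binding.

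The Nac libraries were split by Tbr1 at a log2 CPM of 3.6, in a gap seen in the data. Above it were 22 libraries with 13.9 to 127 CPM and below it 90 libraries with 0.794 to 10.4 CPM. The gap was narrow beside the range on either side, and whether the libraries form 2 clusters was not tested. The 22 were spread over 14 of the 16 groups, 7 of 52 females and 15 of 60 males, and over all number series (2 of 10 libraries in 500, 7 of 48 in 1000, 9 of 28 in 1100 and 4 of 26 in 1200). Over all 112 Nac libraries, on deviations from group means, Tbr1 ran against Nkx2-1 (r = -0.55, rho = -0.40, -0.48, -0.84 to -0.05 within series). It also ran against Foxp2 (r = -0.46, rho = -0.43, -0.46, -0.53 to 0.23) and Meis2 (r = -0.42, rho = -0.46, -0.41, -0.64 to 0.19). The relation to Lhx8 was weaker (r = -0.31, rho = -0.17, -0.30, -0.75 to 0.18, adjusted permutation p = 0.0025). That to Lhx6 did not pass (r = -0.09, adjusted permutation p = 0.45). Correlations on either side of the gap used log2 CPM not centred on group means and were not computed within number series. Their p was adjusted over these 4 relations alone, and the cut was made on Tbr1 itself. Within the 22 libraries Tbr1 followed the cortical glutamatergic list (r = 0.87, rho = 0.88, 0.80 without the 2 farthest, adjusted permutation p = 1.3e-05) and the list of interneurons from the medial ganglionic eminence (r = 0.83, rho = 0.78, 0.74, adjusted permutation p = 1.3e-05). Within the 90 libraries below the gap the relation to the cortical list was weak (r = 0.27, rho = 0.20, 0.26, adjusted permutation p = 0.0089), and that to the interneuron list was 0.60 (rho = 0.69, 0.62, adjusted permutation p = 1.3e-05). With Tbr1 included, 12 of 15 pairs and 62 of 96 relations to lists passed in Nac over all libraries. The cortical list summed to between 956 and 2816 CPM over the Nac libraries. The part of either list's cells in the Tbr1 level was not tested.

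**Figure D3:**
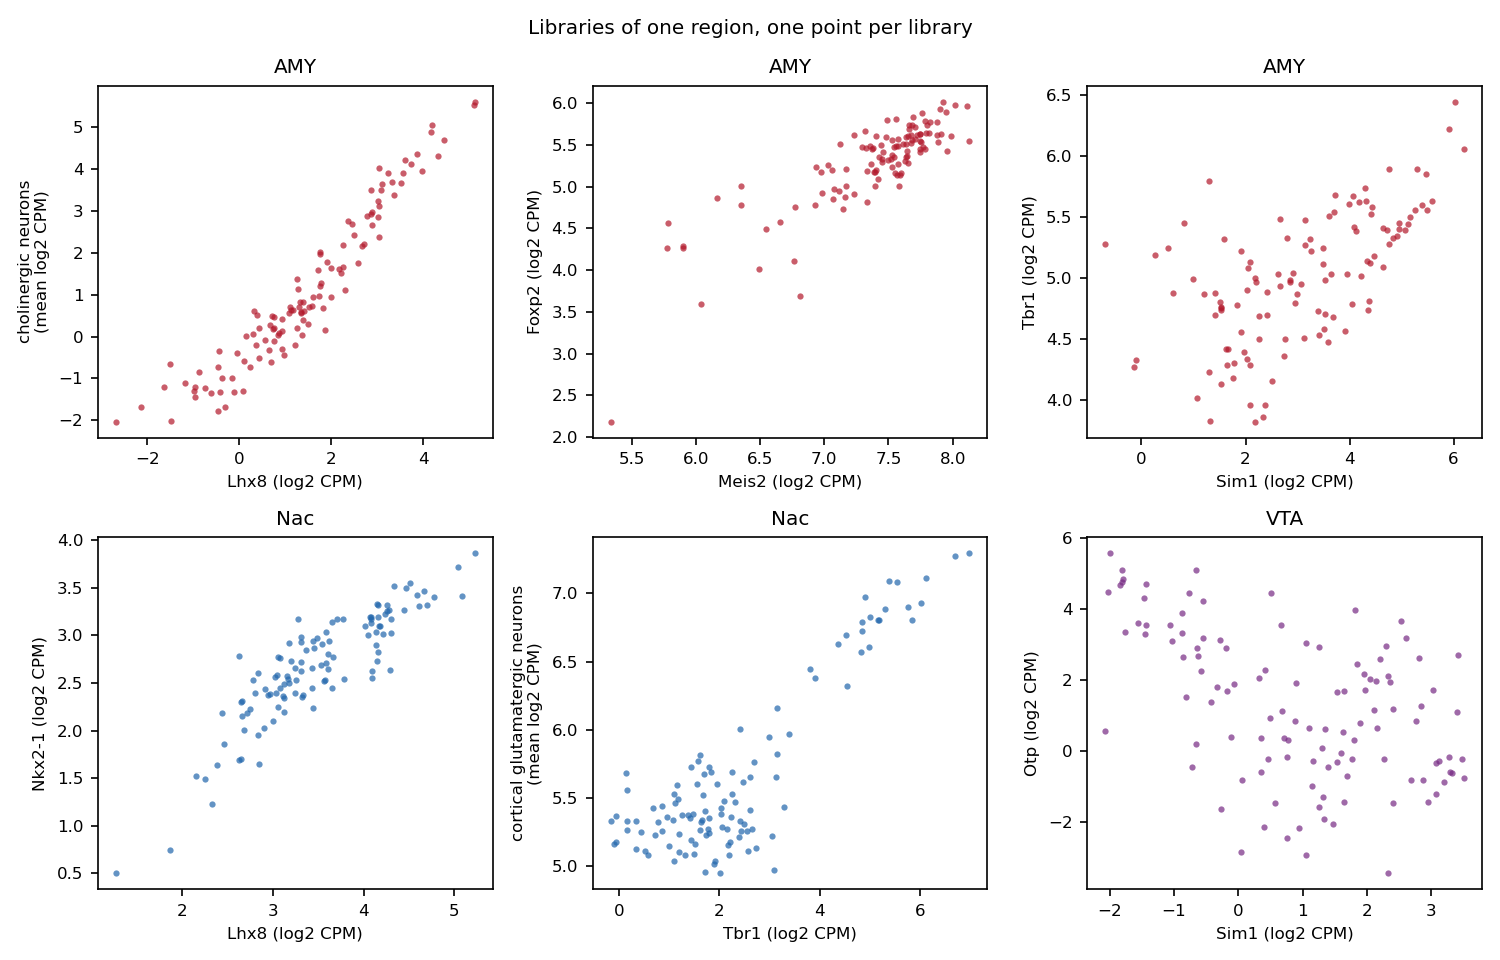
Pairs of measures over the libraries of a region, 1 point per library, as log2 CPM (genes, prior count of 2) or mean log2 CPM of a marker list, not centred on groups. Lhx8 lies on a line with the cholinergic list in AMY (r = 0.96 after centring), Tbr1 in Nac has a dense cloud of 90 libraries and a rising arm of 22, and Otp is lower where Sim1 is higher in VTA.

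In VTA, Otp ran against Sim1 (r = -0.66, rho = -0.66, -0.65 without the 2 farthest, -0.83 to -0.48 within series) and against Foxp2 (r = -0.62, rho = -0.62, -0.60, -0.87 to -0.48), and Sim1 followed Foxp2 (r = 0.66, rho = 0.58, 0.60, 0.37 to 0.75). Meis2 ran against Foxp2 (r = -0.65, rho = -0.61, -0.62, -0.96 to -0.52), where r was 0.86 in AMY and 0.64 in Nac (the difference between regions was not tested). The dopamine neuron list was correlated with Foxp2 (r = 0.67, rho = 0.60, 0.63, 0.57 to 0.95) and ran against Meis2 (r = -0.67, rho = -0.67, -0.65, -0.99 to -0.43). An isolated female with acute saline (replicate 4) showed one end of this axis, with the highest Otp (47.6 CPM) and Meis2 (71.3 CPM) of the region, a Foxp2 of 24.8 CPM and a Sim1 of 0.158 CPM. Among 13405 genes, the genes with a high r included Stk32b (r = 0.76) and Slc6a4, the serotonin transporter (0.75), for Otp and the peptide gene Adcyap1 (0.81) and Dmrta2 (0.78) for Sim1, and those most like Foxp2 were Ghsr, the ghrelin receptor (0.91), Ebf3 (0.88) and Tfap2b (0.83). These genes of VTA were chosen to be named after their values were seen.

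In PFC, 1 pair passed, Foxp2 with Tbr1 (r = 0.32, rho = 0.32, 0.29 without the 2 farthest, 0.33 to 0.66 within series, adjusted permutation p = 0.0018). Foxp2 spanned 9.05 through 24.5 to 40.8 CPM there and ran against the cortical glutamatergic list (r = -0.64, rho = -0.62, -0.60, -0.89 to -0.46) and with the oligodendrocyte list (r = 0.64, rho = 0.66, 0.62, 0.42 to 0.77). Most like Foxp2 there were Syt6 (r = 0.92), Tle4 (0.88) and Hs3st4 (0.86). Most opposite were Slc30a3 (-0.74), Ccdc136 (-0.73) and Lamp5 (-0.71), of which Slc30a3 and Lamp5 belong to the cortical list. These genes were named after their values were seen, and the part of any cell type in the Foxp2 level was not tested. The genes of PFC most like Tbr1, in the region of its highest level, were Prickle1 (r = 0.84), Diras2 (0.82) and Tmem178 (0.81), over 112 libraries and 13277 genes.

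The design compares sex, housing and cocaine within each region. In 5 comparisons per region (females against males, isolation against group housing, the interaction of the 2, acute cocaine against saline and chronic cocaine against saline), 9 of the genes were tested in AMY, 8 in VTA, 7 in Nac and 7 in PFC. A single gene passed in a single comparison, Lhx9 with acute cocaine in VTA. With limma voom 1 gene passed instead, Nkx2-1 with chronic cocaine in PFC, and with DESeq2 Lhx9 alone. The share of all genes that passed for sex was 2.19% in AMY, 0.332% in VTA, 0.272% in Nac and 1.12% in PFC, and for housing and for its interaction with sex it was 0% in each region. For acute cocaine the share was 0% in AMY, 0.0467% in VTA, 0% in Nac and 0.0647% in PFC, and for chronic cocaine 0.0518%, 0.0817%, 0.151% and 7.12%. Before adjustment, p was under 0.05 for none of the genes in any AMY comparison, for 3 with acute and 2 with chronic cocaine and 1 for the interaction in VTA, for 2 for sex in Nac, and for 3 for sex and 5 with chronic cocaine in PFC. Among all genes tested it was under 0.05 for 538 to 2806 of 17391 over the AMY comparisons. In VTA these were 1110, 975 and 329 of 17144, in the same order. For sex in Nac there were 1570 of 17266, and in PFC 2247 for sex and 3997 with chronic cocaine of 17003.

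Lhx9 in VTA ran from 0.797 through 1.70 to 4.38 CPM with acute cocaine (n = 29), against 0.437 through 1.11 to 2.64 CPM with acute saline (n = 28). The groups overlapped widely. The log2 difference was 0.65 (SE 0.14, adjusted p = 0.0428), where 8 of 17144 genes passed. It lost the call with limma voom (adjusted p = 0.257), without a filter on low counts (adjusted p = 0.0896) and within number series 1000 (0.60, adjusted p = 0.0712) and 1100 (0.73, adjusted p = 0.615), and kept it with the number series as a term (0.67, adjusted p = 0.0386) and without the libraries that stood apart (0.71, adjusted p = 0.0373). Among the 8 genes were also Lhx2 (1.21), the cortical vesicular glutamate transporter Slc17a7 (1.495) and the lateral hypothalamic peptides Hcrt (4.10) and Pmch (2.69), so 2 of 6 hypothalamic markers and 1 of 9 cortical markers tested rose with it. Without the libraries that stood apart 1 gene of the table, Lhx9, rose and 1 fell, so Lhx2, Slc17a7, Hcrt and Pmch did not pass there. The hypothalamic list summed to between 3.75 and 111 CPM with acute cocaine, against 3.38 to 6.92 CPM with acute saline, with medians of 4.94 and 5.04 CPM. The cortical list summed to between 389 and 1395 CPM with acute cocaine, against 399 to 581 CPM with acute saline. Their part in the Lhx9 result was not tested.

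The chronic cocaine calls depended on the number series: with the series as a term 2 genes of the table passed in AMY, 5 in VTA, 1 in Nac and 1 in PFC, against 9, 14 and 26 in the first 3 regions and 668 that rose and 542 that fell in PFC without it, and within series 1200 0 genes passed in PFC (330 before adjustment). With chronic cocaine in PFC, Nkx2-1 differed from saline by 0.85 (SE 0.32, adjusted p = 0.0848) and Lhx8 by 1.16 (SE 0.44, adjusted p = 0.0906), neither past the threshold, from levels under 0.2 CPM on average. Of the striatal transcription factors tested there 5 of 13 rose, with Six3 (1.87) and Pbx3 (0.52) among them, and 7 of 9 striatal neuron markers rose, with Drd2 at 1.17 (SE 0.30, adjusted p = 0.0135). Of 9 cortical glutamatergic markers 3 fell, Itpka (-0.20), Lamp5 (-0.27) and Slc30a3 (-0.21). The striatal markers summed to between 209 and 1510 CPM over the PFC libraries, and their part was not tested. Otp in VTA ran from 0 through a median of 0.865 to 26.95 CPM with chronic cocaine and from 0.0472 through 7.47 to 34.2 CPM with chronic saline (n = 29 each), a difference of -1.96 (SE 0.51) that missed the threshold (adjusted p = 0.155). Series 500, which holds chronic saline libraries and none with cocaine, averaged 15.75 ± 11.16 CPM (SD, n = 12), while within series 1200 Otp averaged 7.04 ± 10.36 CPM with chronic cocaine (n = 8) and 5.16 ± 6.34 CPM with chronic saline (n = 17). Among the genes that did pass there were the pituitary hormone genes Prl (-5.45), Cga (-3.75) and Gh (-3.49) and the peptide precursor Pomc (-2.37), and their part in the Otp values was not tested.

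Whether the sex difference varied between regions was tested with an F test over the libraries of all regions. Of 18627 genes 32 passed (0.172%), and of the 9 genes Tbr1 did (adjusted p = 0.0148). Its log2 difference of females against males was 0.13 in AMY, 0.21 in VTA, -0.95 in Nac (SE 0.33, adjusted p = 0.28) and 0.05 in PFC, none of which passed within its region. Beside the difference in Nac stand the 7 of 52 female and 15 of 60 male libraries above the gap, and the F test uses 1 estimate of spread for all regions although Tbr1 varied by 108% in Nac and 11.9% in PFC. No gene of the table passed the same test for housing.

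Chronic and acute libraries were compared with each other as well, a comparison chosen after the values were seen. Among saline libraries 41.9% of all genes tested in VTA passed between chronic and acute, against 23.6% in AMY, 17% in Nac and 21.7% in PFC. Chronic and acute saline libraries share no number series, so for saline the schedule and the series cannot be told apart. The comparison was also made on cocaine libraries of series 1000, which hold both schedules. There 24.9% of all genes passed in VTA, 11.8% in AMY, 4.31% in Nac and 11.6% in PFC. In that series every acute cocaine library has a lower title number than every chronic one. Schedule and title number therefore cannot be told apart there either.

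Lhx9 in VTA was higher with the chronic schedule in either comparison. It ran from 2.18 through 3.91 to 7.68 CPM with chronic cocaine (n = 29) and from 2.08 through 3.41 to 5.95 CPM with chronic saline (n = 29), against a highest acute library of 4.38 CPM with cocaine and 2.64 CPM with saline. The highest acute cocaine library thus lay above the medians of both chronic groups, and the highest acute saline library lay below them. The log2 difference of chronic against acute was 1.504 for saline (SE 0.13, adjusted p = 1.16e-13) and 1.15 for cocaine within series 1000 (SE 0.15, adjusted p = 6.72e-07). Sim1 moved the other way, with means of 1.502 ± 1.067 CPM with chronic cocaine, 0.892 ± 0.769 CPM with chronic saline, 5.40 ± 3.42 CPM with acute cocaine and 4.26 ± 2.74 CPM with acute saline. It fell by 2.24 for saline (SE 0.32, adjusted p = 1.32e-07) and by 1.60 for cocaine within series 1000 (SE 0.35, adjusted p = 0.00147). Foxp2 fell by 0.37 (SE 0.10, adjusted p = 0.00385) and by 0.28 (SE 0.09, adjusted p = 0.0267). Nkx2-1, at 0.128 CPM on average with chronic saline and 0.866 CPM with acute saline, fell by 2.61 for saline (SE 0.59, adjusted p = 3.31e-04) and differed by -0.83 for cocaine within series 1000 (SE 0.52, adjusted p = 0.254). Otp and Meis2 did not pass in either.

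Lists of cell types and domains differed between the schedules in VTA as well. All 7 dopamine neuron markers were higher with chronic saline than with acute saline and 4 of 7 for cocaine within series 1000. Their sum ran from 2659 through 7065 to 10330 CPM with chronic cocaine, from 3076 through 6529 to 9691 CPM with chronic saline, from 1730 through 4098 to 8369 CPM with acute cocaine and from 1674 through 4055 to 6301 CPM with acute saline. Of the 6 microglial markers, 6 and 5 were higher, and the sum had medians of 221, 228, 179 and 179 CPM in the same order. Of the 11 hypothalamic transcription factors tested, 2 were higher and 4 lower for saline, and 2 higher and 5 lower for cocaine within series 1000. The 17 midbrain factors tested went both ways, 5 higher and 7 lower for saline, and 3 higher and 6 lower for cocaine within series 1000. Of all genes tested, 41.9% passed for saline and 24.9% for that cocaine comparison, so a count near these shares is no result about a list. For saline, 4 of 4 pituitary markers were higher (median log2 difference 8.21), as were 3 of 5 hypothalamic neuron markers. Of 6 cerebellar and 9 cortical glutamatergic markers 4 each were higher and 1 each lower, and of 12 striatal factors 6 were higher and 3 lower. Lower for saline were 4 of 5 thalamic markers, 4 of 6 choroid plexus markers and 8 of 15 pallial factors (2 higher). The part of these cells in the differences of Lhx9, Sim1, Nkx2-1 and Foxp2 was not tested.

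**Figure D4:**
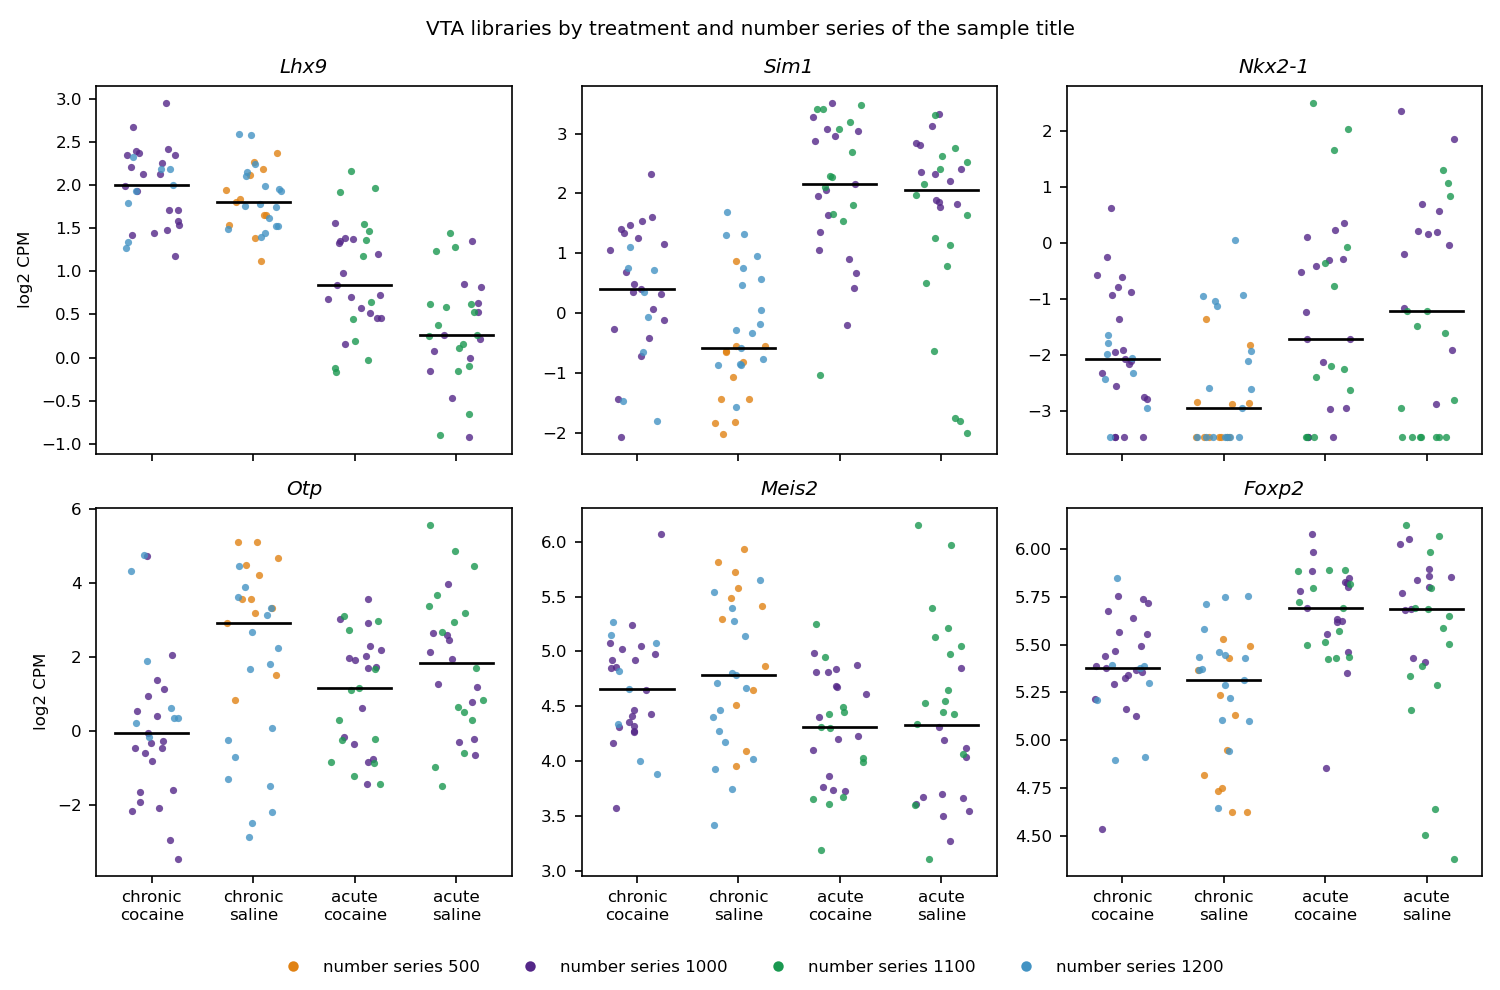
Levels of 6 of the genes in the 115 VTA libraries as log2 CPM with a prior count of 2, by schedule and treatment, coloured by the number series of the title, with medians as black lines. Lhx9 is higher and Sim1 lower in both chronic groups than in both acute groups, and the purple points of series 1000 show the same within cocaine libraries.

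In AMY, for cocaine within series 1000, Lhx8 ran from 0.230 through 2.51 to 20.0 CPM with the chronic schedule (n = 22), against 0.262 through 1.95 to 3.56 CPM with the acute one (n = 14). The difference of 1.81 (SE 0.54, adjusted p = 0.0279) was larger than that of the medians, and without the libraries that stood apart its adjusted p was 0.0583. Sim1 differed by 1.74 (SE 0.48, adjusted p = 0.0186), with medians of 17.1 CPM for chronic and 5.01 CPM for acute cocaine, and Tbr1 by 0.64 (SE 0.17, adjusted p = 0.0124). In the same comparison 3 of 3 cholinergic markers (median log2 difference 3.01) and 5 of 6 endothelial markers (0.34) were higher and 6 of 6 medial amygdala markers (-0.87) were lower, and their part in these differences was not tested. For saline these 3 did not pass, and Lhx6 fell by 0.25 in AMY (SE 0.08, adjusted p = 0.0178) and by 0.11 in PFC (SE 0.04, adjusted p = 0.0186). In Nac none passed, and without the libraries that stood apart Lhx6 (-0.49, adjusted p = 0.00254) and Lhx8 (-0.59, adjusted p = 0.0158) did for cocaine within series 1000. In that setting 1068 genes of the table were higher and 932 lower of 17005, against 453 and 282 of 17046 with those libraries.

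The number series also differed from each other within a treatment, again a comparison chosen after the values were seen. In AMY, Lhx8 and Lhx9 passed in both pairs of series. Series 1000 and 1200 hold chronic cocaine libraries as well (22 of 50 and 8 of 25 in AMY), so medians by series pool treatments. Lhx8 had medians of 4.57 CPM in series 1100 and 2.33 CPM in series 1000, and of 6.51 CPM in series 500 and 1.61 CPM in series 1200. With the treatment groups in the fit, it differed by 1.49 for 1100 against 1000 (SE 0.39, adjusted p = 0.0174) and by 1.93 for 500 against 1200 (SE 0.51, adjusted p = 0.0235), where 3.97% and 4.23% of all genes passed. Lhx9 differed by -0.54 (SE 0.14, adjusted p = 0.0187) and by -0.69 (SE 0.19, adjusted p = 0.0280). Meis2 passed for 1100 against 1000 (0.47, adjusted p = 0.0190) and Nkx2-1 for 500 against 1200 (0.87, adjusted p = 0.0356). In Nac, Tbr1 differed by 1.89 for 1100 against 1000 (adjusted p = 0.0244, 1.46% of all genes) and Lhx6 by -0.77 for 500 against 1200 (adjusted p = 0.0102, 9.95% of all genes). In PFC, Nkx2-1 differed by -1.86 for 500 against 1200 (adjusted p = 0.0203, 14.8% of all genes), and in VTA none of the genes passed for either pair of series, where 0.0758% and 0.0525% of all genes did. For 1200 against 1000 none of the 9 genes passed in any region, and neither did most others (0.00575% of all genes in AMY, 0.0233% in VTA, 0% in Nac and 0.0353% in PFC).

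**Figure D5:**
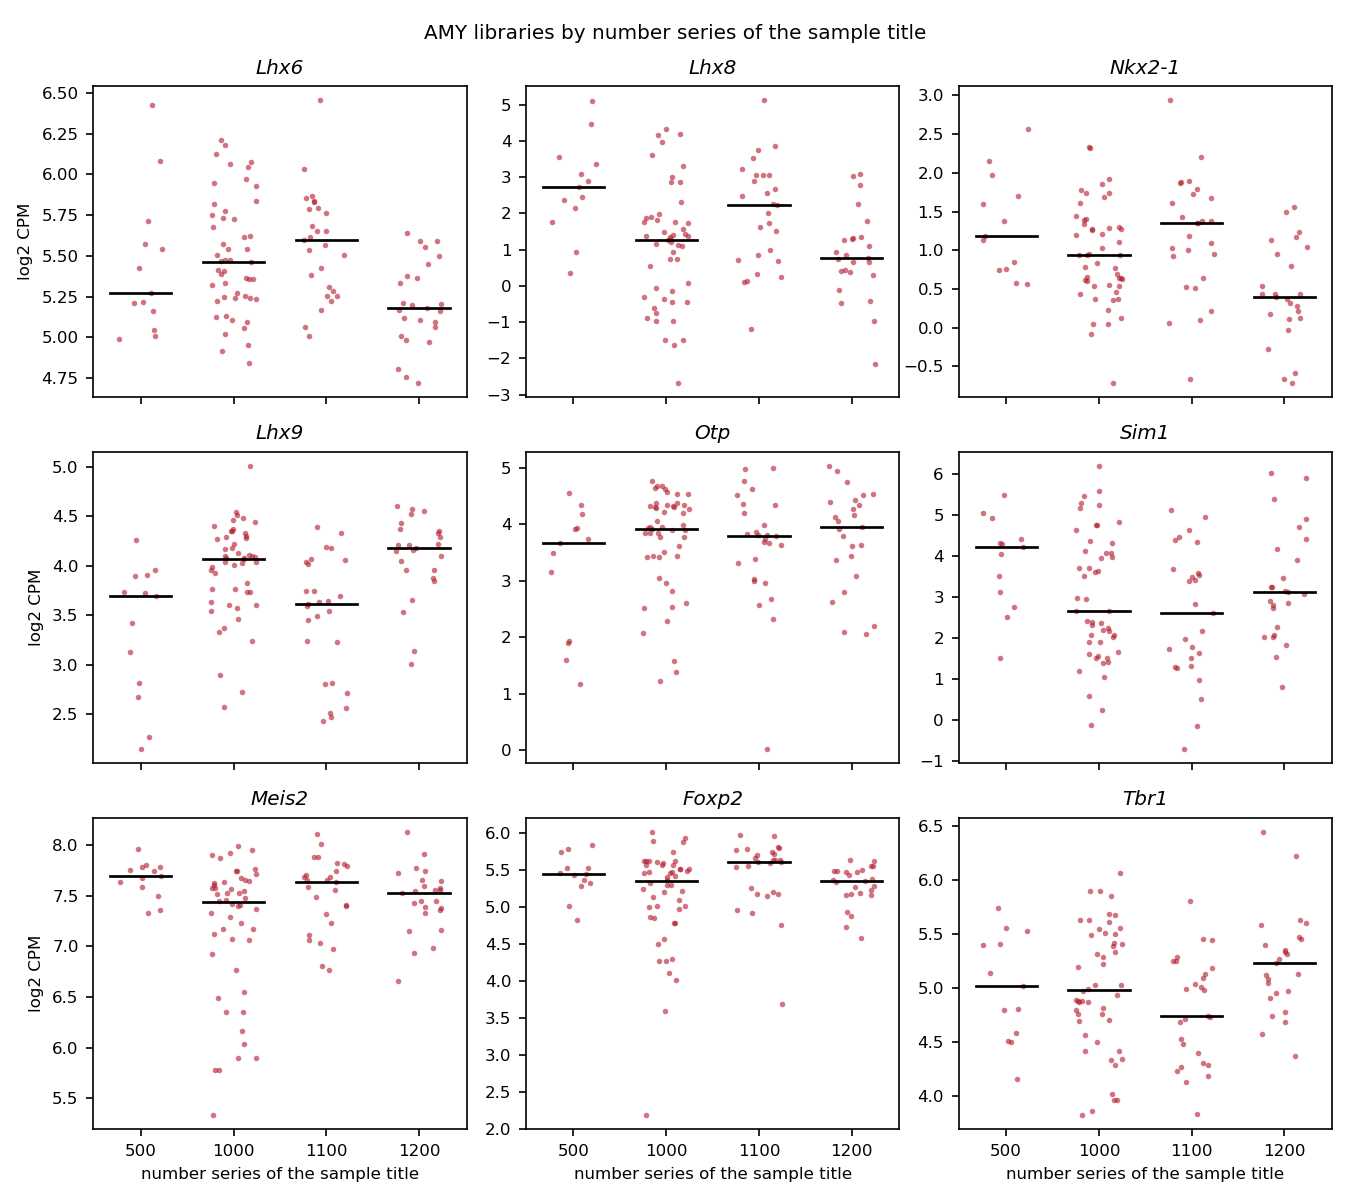
Levels of the 9 genes in the 115 AMY libraries as log2 CPM with a prior count of 2, by the number series of the sample title, with medians as black lines. Lhx8 is higher and Lhx9 lower in series 500 and 1100 than in 1000 and 1200, with wide overlap between all series.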

How the data were processed

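RNA of mouse brain libraries was measured. Per the labels' protocols, total RNA was extracted with QIAzol and RNeasy columns, and stranded poly(A) libraries were read as single ends. The deposited table holds raw gene counts, and per the submitters' processing notes the authors used STAR, featureCounts, limma and the GRCm38 (mm10) genome; no source used here gives tool versions, annotation release or strand setting. Symbols came from a gene-name table (42462 of 43346 identifiers matched), and positions and exon lengths from GENCODE annotation of GRCm38, which may not be the authors' release.

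Counts were scaled by TMM and tested with edgeR 4.0.16 (quasi-likelihood, low counts filtered, Benjamini-Hochberg threshold 0.05) in R 4.3.3, region pairs in 1 fit over 64 groups and the other comparisons within a region. Alternatives used limma 3.58.1 (voom) and DESeq2 1.42.0. Scripts were tested on simulated data. Correlations used log2 CPM with a prior count of 2 and 100000 permutations. Libraries stood apart at a robust z over 5 on any of 4 principal components of 3000 variable genes, over 8 on a foreign marker list, or at 5% transcripts of the opposite sex. The closest 2 libraries of a group differed by 2.69 times the sampling noise (chi-square per degree of freedom), so none was counted as a repeat.

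Named were the 9 genes, genes of fixed lists, and for each of the 9 the 3 genes with the highest r in AMY and in the region of its highest level. Genes like the 9 in VTA, and those like and opposite to Foxp2 in PFC, were named outside this rule. The 9 genes and the lists were chosen with earlier results of these data known. Lhx6 and Foxp2 overlap small gene models on their own strand (Gm27953 and Gm25470). A few genes of the lists and rankings are not reported here.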

Additional observations from a re-analysis of the deposited data

Results flagged for a closer look

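The sex difference of Tbr1 was the value that differed between regions by a test of the difference itself (adjusted p = 0.0148, edgeR's quasi-likelihood F test). In AMY, Tbr1 averaged 35.6 ± 13.6 CPM in females and 32.9 ± 12.3 CPM in males (SD). In VTA it averaged 0.949 ± 0.991 CPM in females and 0.787 ± 0.326 CPM in males, and in PFC 177 ± 19.6 CPM in females and 172 ± 24.8 CPM in males. Nac had the opposite order, with 7.22 ± 10.9 CPM in females and 15.08 ± 24.97 CPM in males. The Nac medians were closer, 3.38 CPM in females and 4.03 CPM in males, and the highest Nac libraries had 65.4 CPM in females and 127 CPM in males.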

How the results depend on the processing

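Under the alternatives, 317 values of region differences kept direction and call, 5 changed sign, 1 lost its call and 1, Sim1 in Nac against PFC with DESeq2 (0.94, adjusted p = 0.00457), gained one. The sign turned for differences that had not passed, Meis2 in AMY against PFC (-0.054 with limma voom, -0.058 with voom and the replicate block) and Otp in Nac against PFC (-0.083, -0.067 and, without the libraries that stood apart, -0.10). Nkx2-1 in VTA against PFC missed the threshold with voom (0.15, adjusted p = 0.580). With the title number as a replicate block, 9, 8, 9, 9, 9 and 7 genes passed between regions, the same counts as without it. Same-numbered libraries correlated over 0.1 in 14 to 33 of 99 to 106 numbers, and the median correlation was above 0 in each pair of regions (0.00778 to 0.0524). Of 129 title numbers 86 were in all 4 regions, and 0 had more than 1 combination of sex, housing and treatment. The labels do not say that a number marks an animal, so the numbers were not taken as pairs. The F test of the sex difference was run without the replicate block, so it treats same-numbered libraries as independent. For acute cocaine in VTA 0 of the genes tested here passed with voom, without the filter and within series 1000 or 1100, though within series 1000 the table as a whole had 176 genes that rose and 287 that fell of 15941, against 8 over all series. For chronic cocaine in PFC 1 of them passed with voom. For chronic against acute cocaine within series 1000 in Nac, 2 of them passed without the libraries that stood apart. The whole table had more calls there too, 1068 higher and 932 lower of 17005, against 453 and 282 of 17046 with those libraries. Leaving out each isolated male with acute cocaine of AMY gave 0 in all 5 comparisons. For the correlations over 0.5 in size, 471 values under the alternatives stayed within the approximate sampling error of r and 167 moved beyond it. A further 10 changed sign, all within the small series 500. In AMY these were Foxp2 with the central amygdala (-0.19) and dopamine lists (-0.060), Lhx8 with Foxp2 (-0.32) and Meis2 with the dopamine list (-0.063). In Nac they were Lhx6 with Meis2 (0.21) and with the central amygdala (-0.085), medial amygdala (-0.17) and striatal lists (0.30), and Meis2 with oligodendrocytes (0.024), and in PFC Tbr1 with the central amygdala list (0.49). Of the 41 pairs and 210 relations to lists that passed, Tbr1 in Nac left out, 9 and 44 had the other sign within series 500. The numbers were 0 and 6 within 1000, 6 and 15 within 1100 and 1 and 12 within 1200. The cause was not tested. Genes under 1 CPM rest on few reads, so small differences between them were not detectable at this depth.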
